A study of Danio rerio with 18 samples.

Results

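5.8S rRNA is the shortest of the rRNAs cut from the common precursor that also gives 18S and 28S rRNA. It carries 3 of the 98 ribose methylation sites that the authors list for zebrafish rRNA, and these were taken as every listed site of 5.8S together with all of its positions in the tables. The sites are 5.8S-Um8, 5.8S-Um14 and 5.8S-Gm75, methylated uridines at positions 8 and 14 and a methylated guanosine at position 75. The early 5.8S rRNA held 159 of 6368 rRNA positions and the late 5.8S rRNA 157 of 6152.

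Methylation was read by RiboMeth-seq, in which RNA is broken by alkali and the ends of the fragments are counted at each rRNA position. A methyl group on the ribose protects the neighbouring bond, so few fragments end at a methylated nucleotide. The score is 1 minus the read ends at a site over the weighted mean of the 6 positions on each side. A fully methylated site should score 1 and an unmethylated one 0. Unlisted 5.8S positions still had a median score of 0.0574 to 0.278 in a library, so a score is not read here as a methylated fraction. The 14 zebrafish libraries came from 5 stages. Unfertilized egg, the 32-cell and 12-somite embryo and the protruding-mouth larva have 3 libraries each, and adult tail, which the series also calls trunk, has 2.

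Replicates were biological, per the labels, which name no strain, sex, age in days, treatment or altered genotype for any group. Per the file headers, the authors used the early, or maternal, rRNA as reference up to 12-somite and the late, or somatic, rRNA for protruding-mouth and adult tail, so the reference sequence and these 2 blocks of stages cannot be told apart. The libraries held 1494730 to 15358081 read ends. Each was made from whole eggs, embryos, larvae or tail tissue, so a lower score in every cell and another mix of cells cannot be told apart.

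In the ribosome, 5.8S rRNA lies in the large subunit, where it pairs with 28S rRNA and forms part of the region around the tunnel through which new proteins leave. 2'-O-methylation of rRNA is placed by fibrillarin, which box C/D small nucleolar RNAs direct to its sites by base pairing. In human cells SNORD71 is assigned to U14 and SNORD96A to G75 of 5.8S rRNA.

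The early and late 5.8S sequences are shown because they give the letters around the sites in each reference. They are given 5′ to 3′ as the stage tables list them, and capitals mark the letters that differ between them.
Early 5.8S rRNA: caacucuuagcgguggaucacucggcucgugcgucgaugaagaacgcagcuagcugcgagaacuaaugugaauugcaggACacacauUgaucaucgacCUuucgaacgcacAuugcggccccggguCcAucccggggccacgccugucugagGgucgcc
Late 5.8S rRNA: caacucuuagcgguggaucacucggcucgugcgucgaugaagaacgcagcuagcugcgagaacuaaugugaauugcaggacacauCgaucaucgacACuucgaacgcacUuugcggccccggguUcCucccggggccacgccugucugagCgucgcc

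The first 84 letters were identical. Of 157 aligned pairs 150 matched. The 7 substitutions, with the early base first and positions counted from 1 at the 5′ end of early 5.8S, were U88C, C99A, U100C, A112U, C127U, A129C and G153C. The early sequence held 2 further bases in a run of alternating A and C, where their exact place cannot be fixed. The capitals at positions 80 and 81 are 1 possible placement, and the late sequence has the same letters at these positions.

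All 3 sites and their flanks lie before the first difference. Sequenced fragments were 20 to 40 nt long, so those that begin in the Gm75 window can run past position 84. The effect of the reference on their counts was not tested. The stretches of 13 nucleotides that enter each score are given with the site in capitals, because they show that Um8 and Um14 share flanks. These windows cover positions 2 to 14, 8 to 20 and 69 to 81.
5.8S-Um8: aacucuUagcggu
5.8S-Um14: uagcggUggauca
5.8S-Gm75: ugaauuGcaggac

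Um8 and Um14 are 6 nucleotides apart, so each is the farthest flanking position of the other, with a weight of 0.5. A fragment that begins near the 5′ end of the molecule adds its 5′ read end there and its 3′ read end further along. In the 12 libraries from egg to protruding-mouth, whose columns give 5′ ends apart, 0 of the 3′ ends on 5.8S fell on positions 1 to 14, and the first lay at position 15 to 21. The Um8 score thus came from 5′ ends alone. 5′ ends made up at least 92.8% of the ends in the Um14 window, against 0.596% to 38.9% in the Gm75 window. The adult columns used here give both kinds together.

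Um8 was the most variable of the 3 sites. Its score was 0.830, 0.617 and 0.880 in the egg libraries 1 to 3, and 0.861, 0.877 and 0.859 at 32-cell. It was 0.904, 0.851 and 0.568 at 12-somite, and 0.480, 0.388 and 0.791 at protruding-mouth. Both adult libraries were high, with 0.974 in library A and 0.978 in library B. Adult tail stood above every other library. Taken against a single stage, adult tail was higher in every library at 13.3% of all 98 sites for egg and 25.5% for 32-cell. The share was 23.5% for 12-somite and 19.4% for protruding-mouth. The share of sites with adult tail above all stages at once was not counted. The egg, 12-somite and protruding-mouth ranges overlapped one another.

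By stage, the mean Um8 score was 0.776 ± 0.140 in egg and 0.866 ± 0.00975 at 32-cell, then 0.775 ± 0.181 in 12-somite embryos and 0.553 ± 0.211 in larvae (SD, n = 3 each), and 0.976 ± 0.00304 in adult tail (n = 2). Among the 98 sites, ordered from the highest stage mean, it was in place 91, 77, 86, 97 and 10 in these stages. A site among the lowest in larvae was thus among the highest in adult tail. The SD within a stage also differed: the 3 libraries at 32-cell lay within 0.0179 of each other, and those at protruding-mouth within 0.403.

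Um14 followed Um8 in the order of its highest and lowest stages. Its score was 0.727, 0.674 and 0.537 in egg, 0.734, 0.817 and 0.770 at 32-cell and 0.552, 0.75 and 0.814 at 12-somite. It was 0.416, 0.621 and 0.695 at protruding-mouth, and 0.954 and 0.955 in adult libraries A and B. Both adult libraries again lay above all others, and all 32-cell libraries lay above all egg and protruding-mouth libraries. Of all sites, 6.12% had every 32-cell library above egg and 13.3% had every protruding-mouth library below 32-cell. High adult scores were not particular to the listed sites of this stretch. At C11, an unlisted position in both windows, adult libraries A and B scored 0.908 and 0.534, against at most 0.394 elsewhere. At unlisted C23 they scored 0.548 and 0.267, against 0 in every other library. Unlisted A17 went the other way, with 0 and 0.198 against at least 0.360.

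The mean Um14 score was 0.646 ± 0.0981 in egg and 0.774 ± 0.0414 at 32-cell, then 0.706 ± 0.136 in 12-somite embryos and 0.577 ± 0.145 in larvae (SD, n = 3 each), and 0.955 ± 0.000722 in adult tail (n = 2). It was in place 93, 87, 88, 95 and 33 of 98 from the highest. The order of the stages in mean score, from low to high, was protruding-mouth, egg, 12-somite, 32-cell and adult tail for both uridines, although at Um8 the difference of 12-somite from egg was only -0.00144.

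Gm75 was high throughout. It scored 0.962, 0.946 and 0.908 in egg, 0.926, 0.873 and 0.934 at 32-cell and 0.922, 0.842 and 0.892 at 12-somite. At protruding-mouth it scored 0.962, 0.826 and 0.916, and in adult libraries A and B 0.90 and 0.941. The libraries of every stage overlapped those of every other stage, and the stage means lay between 0.885 ± 0.0402 at 12-somite and 0.939 ± 0.0278 in egg (SD, n = 3 each). Its place among the 98 sites was between 53 and 74.

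**Figure D1:**
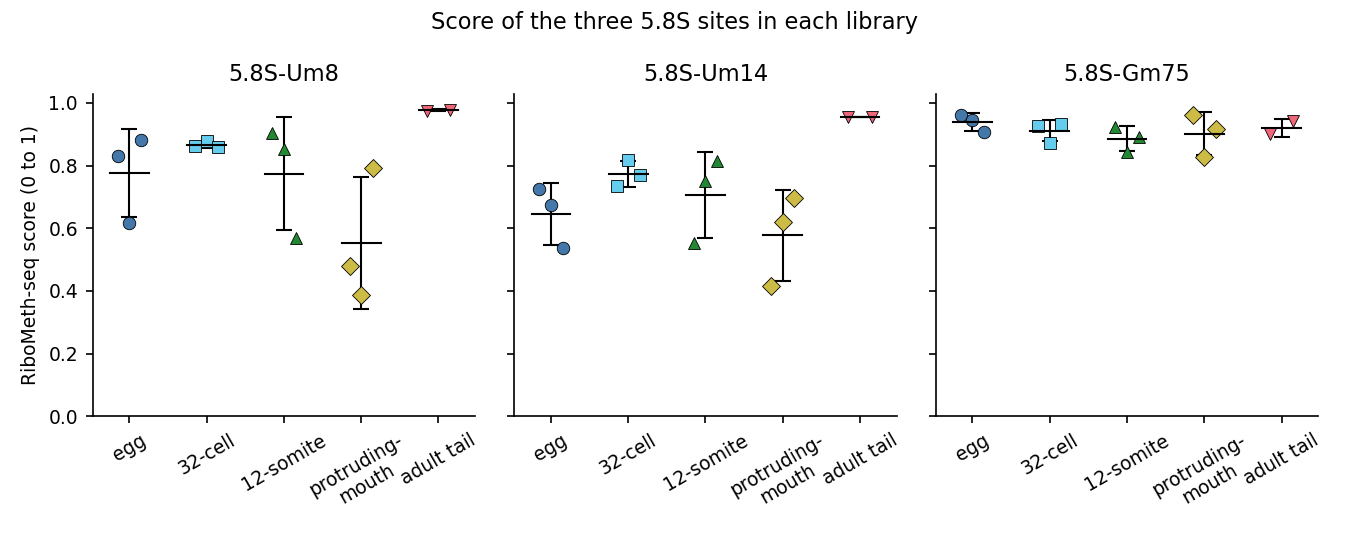
RiboMeth-seq score (0 to 1) of 5.8S-Um8, 5.8S-Um14 and 5.8S-Gm75 in each of the 14 libraries, by stage, with the mean as a horizontal line and the SD as a bar (n = 3 per stage, n = 2 in adult tail). At Um8 and Um14 both adult libraries lie above all others and the lowest library is one of protruding-mouth, at 0.388 and 0.416, while Gm75 stays between 0.826 and 0.962.

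Across all 14 libraries the SD of the score was 0.185 at Um8, 0.152 at Um14 and 0.0412 at Gm75, against a median SD of 0.0374 for the 95 sites of 18S and 28S rRNA. Um8 had the 8th, Um14 the 12th and Gm75 the 43rd largest SD of 98. The spread of the uridines was largely present among replicates: with stage means removed, the SD was 0.147 at Um8 and 0.106 at Um14, against 0.0439 at Gm75 and a median of 0.0353 for the other sites.

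The depth behind the Um8 and Um14 scores was lowest in adult library A. It held 6 read ends at Um8, against a flank mean of 227.0, and 3 at Um14, against 61.0. Taking the flanks as fixed, the exact Poisson 95% interval of the score was 0.943 to 0.99 at Um8 and 0.866 to 0.991 at Um14. Adult library B, with 31 and 23 read ends, gave 0.969 to 0.985 at Um8 and 0.933 to 0.971 at Um14. At Gm75 the lowest depth was that of 12-somite library 3, with 24 read ends against a flank mean of 241.6. In the 12 libraries outside adult tail, Um8 had 113 to 2998 and Um14 239 to 1159 read ends. The intervals of the adult scores cover counting error only, and are too narrow for it where read ends are PCR copies of the same molecule. They leave out the spread between libraries, with an SD within stages of 0.147 at Um8 and 0.106 at Um14. As computed, these intervals lie above the highest single score outside adult tail, 0.904 at Um8 and 0.817 at Um14.

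Whether the sites differ between stages was tested with limma over all 98 sites, in each of the 10 pairs of stages and with the Benjamini-Hochberg adjustment within a pair. Of the 30 tests on 5.8S sites 1 passed. Of all 98 sites, 2.04% passed for protruding-mouth against egg and 0% in each other pair without adult tail. Um14 was 0.955 in adult tail against 0.577 at protruding-mouth, a difference of 0.377 (SE 0.0907, limma adjusted p = 0.0351), in a comparison where 6.12% of all sites passed. The ranges of the 2 stages did not overlap.

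The call of Um14 rested on each of several libraries. Without adult library A or B the adjusted p was 0.378 or 0.105, and without protruding-mouth library 1, 2 or 3 it was 0.106, 0.0675 or 0.0510. It was 0.0571 without egg library 2 and 0.0598 without 32-cell library 3. In these fits the difference lay between 0.296 and 0.436, and with 1 adult library left that library was assumed to vary like the other groups.

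Um8 showed a difference of 0.423 between adult tail, at 0.976, and protruding-mouth, at 0.553 (SE 0.125, limma adjusted p = 0.0800), which did not pass. The limma adjusted p was 0.0473 without 12-somite library 3, where Um8 was at 0.568. On the logit scale of all libraries it was 0.00292. Of 25 other settings of the fit, these were the 2 that passed. Gm75 differed by 0.0189 between the same stages (95% interval -0.0657 to 0.104, limma adjusted p = 0.922).

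Against the other stages, adult tail was higher at both uridines in all libraries, and none of these tests passed on the scale of the score. The Um14 difference was 0.309 against egg (limma adjusted p = 0.125), 0.181 against 32-cell (adjusted p = 0.455) and 0.249 against 12-somite (adjusted p = 0.217). For Um8 it was 0.200, 0.110 and 0.202 (limma adjusted p = 0.484, 0.777 and 0.469). On the logit scale 4 of these 6 tests passed, those of Um14 against egg (limma adjusted p = 0.00316), 32-cell (0.0272) and 12-somite (0.0175) and that of Um8 against egg (0.0352). In each of these 3 comparisons 3.06% of all sites passed on the scale of the score, and 6.12%, 5.1% and 2.04% on the logit scale, which gave 4.08% against protruding-mouth. These comparisons share the adult libraries, so the 4 contrasts with adult tail are not independent. Over the other settings of the fit, Um14 passed in 2 of 24 against egg, 1 of 24 against 32-cell and 3 of 25 against 12-somite. Um8 passed in 1 of 24 against egg, 1 of 24 against 32-cell and 0 of 25 against 12-somite.

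Among the pairs of stages before adulthood, protruding-mouth against 32-cell gave the most negative differences at both uridines. Um8 differed by -0.313 (SE 0.112, limma adjusted p = 0.240) and Um14 by -0.196 (SE 0.0811, adjusted p = 0.287). The libraries of the 2 stages did not overlap at either site. Of the 98 sites 0 passed, while 12 had an unadjusted limma p under 0.05. The quasi-binomial model called 1 site there, which was not on 5.8S. At 32-cell against egg, Um14 was higher in every library, by 0.128 (limma adjusted p = 0.603).

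Over all 5 stages at once, 0 of the 3 sites passed. The moderated F test gave a limma adjusted p = 0.347 for Um8, 0.166 for Um14 and 0.785 for Gm75, and 3.06% of the 98 sites passed.

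The libraries carried 7 sequence barcodes, per the file headers, and libraries of the same barcode could be set side by side. On each of the 3 barcodes shared by protruding-mouth and 12-somite, Um14 was lower at protruding-mouth, by differences of -0.137, -0.129 and -0.119. On the 2 barcodes shared with adult tail, it was higher in adult tail than at protruding-mouth by 0.333 and 0.260, and higher than at 12-somite by 0.204 and 0.141. On the 2 barcodes shared by 32-cell and egg it was higher at 32-cell by 0.0900 and 0.0960. The share of all 98 sites that kept the same direction on the shared barcodes was not counted.

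With the barcode as a block, 3 of the 12 tests that could be fitted for 5.8S sites passed, all of them of Um14. The blocked difference was 0.298 for adult tail against protruding-mouth (limma adjusted p = 0.000914), 0.170 for adult tail against 12-somite (adjusted p = 0.00912) and -0.128 for protruding-mouth against 12-somite (adjusted p = 0.0347). In this last comparison the libraries of a barcode are also those of a replicate number. With the number as the block the call was absent. The limma adjusted p was 0.508 in a fit of 32-cell to protruding-mouth and 0.906 with egg added. Egg libraries did not deviate together with same-numbered libraries of the other stages, so the number does not pair them in the second fit. Of all 98 sites, 4.08%, 8.16% and 1.02% passed with this block in the same 3 comparisons, and 1.02% for 32-cell against egg. On both barcodes that hold all 3 stages, Um14 was highest in adult tail and lowest at protruding-mouth. Adult tail was highest there at Um8 and Gm75 too.

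Um8 did not keep such an order, since protruding-mouth was not the lowest on both barcodes. Between protruding-mouth and 12-somite it differed by -0.424 and -0.463 on 2 barcodes and by 0.223 on the third. It was higher in adult tail than at protruding-mouth by 0.586 and 0.187, and than at 12-somite by 0.123 and 0.411. Between 32-cell and egg it was higher at 32-cell by 0.0466 and 0.242. With the barcode as a block, Um8 gave 0.437 for adult tail against protruding-mouth (limma adjusted p = 0.214). On these barcodes Gm75 was higher in adult tail than at protruding-mouth by 0.0740 and 0.0242. Against 12-somite it was higher in adult tail by 0.0583 and 0.0485.

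Whether the 3 sites vary together was asked over the 14 libraries, with 3 pairs of sites and permutation tests of 100000 resamples. Um8 and Um14 had Pearson's r = 0.511 (two-sided permutation p = 0.0669, adjusted p = 0.201) and Spearman's rho = 0.446 (permutation p = 0.110, adjusted p = 0.331). Without the 2 libraries farthest from the median of Um8, both of protruding-mouth, r was 0.219 (n = 12, permutation p = 0.494), so the size of r rested on those libraries. Without adult tail it was 0.310 (permutation p = 0.333). In these scores the windows of Um8 and Um14 share positions. With 2 flanking positions on each side they share none, and r over the 14 libraries was 0.751 (adjusted permutation p = 0.00312).

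Within stages, as deviations from the stage means, Um8 and Um14 had r = -0.121 (exact permutation p = 0.758). As deviations from the barcode means, over the 12 libraries whose barcode occurs more than once, r was 0.786 (exact permutation p = 0.0417, adjusted p = 0.125). Among the 12-somite libraries the one lowest at Um8, library 3 with 0.568, was the highest at Um14, with 0.814. Library 1, the highest at Um8 with 0.904, was the lowest at Um14, with 0.552.

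The correlation of Gm75 with either uridine did not pass. With Um8 it had r = 0.180 and rho = 0.00220, and with Um14 r = -0.141 and rho = -0.226 (permutation p of r = 0.525 and 0.637, adjusted p = 0.637 for both; permutation p of rho = 0.999 and 0.435, adjusted p = 0.999 and 0.653). Without the 2 farthest libraries these r were -0.0333 and -0.0544. Within barcodes they were 0.285 and 0.284 (exact permutation p = 0.451 and 0.486).

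**Figure D2:**
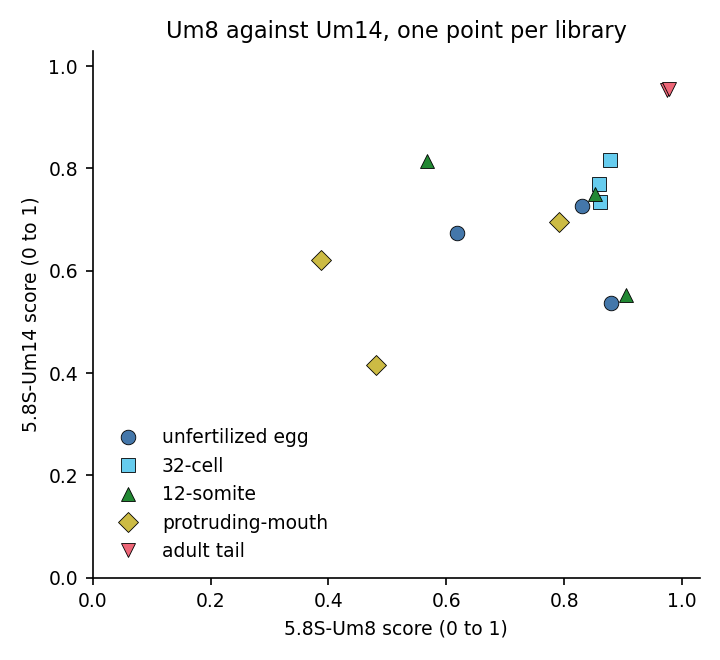
Score of 5.8S-Um14 against that of 5.8S-Um8 (both 0 to 1), with 1 point per library and a symbol for each stage. The adult libraries lie in the upper right corner, near 0.976 and 0.955, and the libraries of a stage do not line up along a diagonal (r = -0.121 within stages).

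As a description, the listed 18S and 28S sites whose scores ran most like each 5.8S site over the 14 libraries were sought by Pearson's r. For Um8 they were 28S-Um4276 (r = 0.661), 18S-Um428 (0.621) and 28S-Am1858 (0.620). For Um14 they were 18S-Um354 (0.754), 18S-Um121 (0.75) and 18S-Um428 (0.721), and for Gm75 18S-Um1442 (0.831), 18S-Am99 (0.822) and 18S-Um116 (0.779). The points of each r share libraries, and so depth and barcode. As deviations from the stage means, r was 0.166, 0.00464 and 0.736 for the sites of Um8, in the same order. For those of Um14 and Gm75 it lay between 0.531 and 0.887. The lowest Spearman's rho was 0.380, for Gm75 and 18S-Am99. 18S-Um354, the closest to Um14, was also lowest at protruding-mouth, with a mean of 0.239, and highest in adult tail, with 0.655. It was chosen by r over these same libraries, so this is no separate result.

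The share of all read ends that fell on 5.8S was 2.58%, 2.72% and 2.01% in egg libraries 1 to 3, and 3.16%, 2.89% and 4.03% at 32-cell. It was 4.90%, 3.14% and 5.2% at 12-somite, 2.71%, 3.06% and 4.1% at protruding-mouth, and 3.32% and 2.40% in adult libraries A and B. Every egg library lay below every 32-cell and 12-somite library, and the other stages overlapped. The widest Wilson 95% interval of a library, that of adult library A, was 3.29% to 3.35%, and covers counting error only.

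The mean share was 2.43% ± 0.375 in egg and 3.36% ± 0.596 at 32-cell, then 4.41% ± 1.11 in 12-somite embryos and 3.29% ± 0.723 in larvae (SD, n = 3 each), and 2.86% ± 0.647 in adult tail (n = 2). The difference between stages did not pass (exact permutation p = 0.0785 over 33633600 assignments). This test does not pair libraries by number. In same-numbered libraries the share at 12-somite minus that at 32-cell was 1.73, 0.248 and 1.17 points, higher at 12-somite in all 3. Exchanging the 3 stages from 32-cell to protruding-mouth within each number gave an exact permutation p = 0.111, where the smallest possible is 0.0278. In the test that does not pair libraries by number, the exact permutation p of 0.0785 became 0.0176 without 12-somite library 2. Without 12-somite library 3 it was 0.227. Without the first and last 20 positions of each rRNA, the p of that unpaired test was 0.0335. It was 0.107 without the 10 positions with most read ends, and 0.139 for read ends per position on 5.8S over 28S.

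Between the late-reference stages, at 3.12%, and the early-reference stages, at 3.40%, the difference was -0.284 percentage points (exact permutation p = 0.612 over 2002 assignments). On shared barcodes the share at protruding-mouth minus that at 12-somite was -2.18, -0.0785 and -1.10 points, lower at protruding-mouth in all 3, and that at 32-cell minus that in egg 0.317 and 1.31 points. Per position, 5.8S held 0.817 to 2.09 times the read ends of 28S over the 14 libraries.

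**Figure D3:**
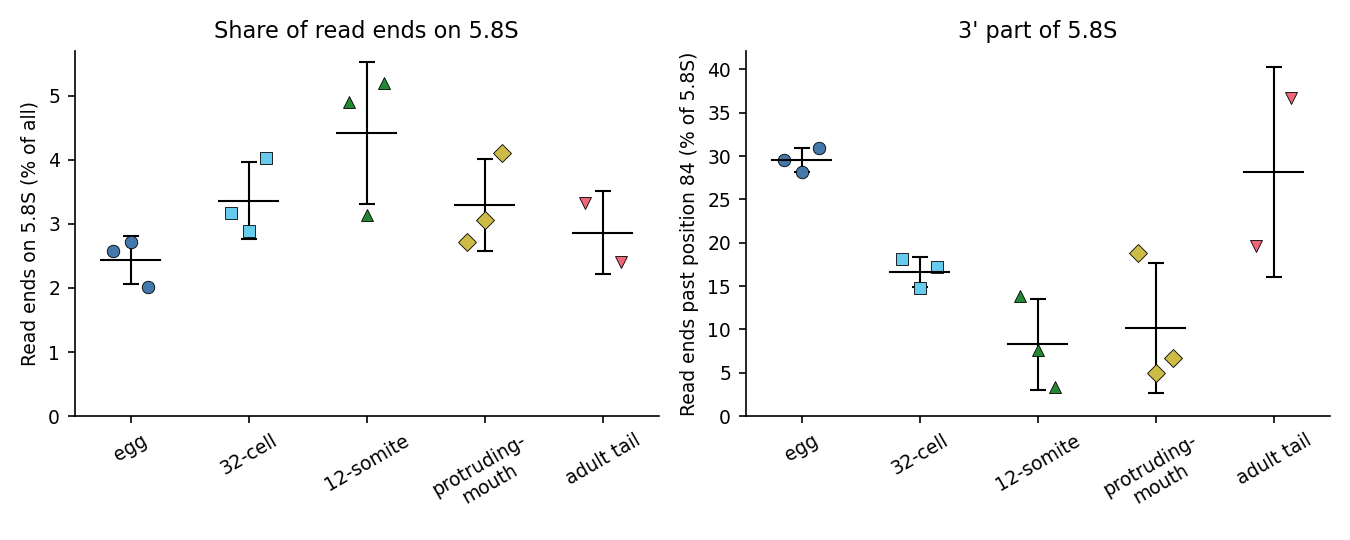
Read ends on 5.8S as a percentage of all rRNA read ends (left) and read ends past position 84 as a percentage of those on 5.8S (right), for each library by stage, with the mean as a line and the SD as a bar (n = 3 per stage, n = 2 in adult tail). Position 84 is that of each reference's own numbering. On the left the egg libraries are low, from 2.01% to 2.72%, and on the right they lie between 28.1% and 30.9%, above all libraries from 32-cell to protruding-mouth.

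Read ends were spread unevenly along 5.8S. The 5 positions with most read ends, by their mean percentage over 14 libraries, were C1 with 3.88%, C35 with 2.17%, C57 with 1.86%, U30 with 1.85% and C28 with 1.85%. C1 is the first nucleotide of the molecule. It took 0.801% of the 5.8S ends in 32-cell library 2 and 11.8% in adult library A, and the 2 adult libraries differed widely there, since library B had 3.34%.

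The part of 5.8S past position 84, which holds the substitutions, took 29.6%, 28.1% and 30.9% of the 5.8S ends in egg and 18.1%, 14.8% and 17.2% at 32-cell. It took 13.9%, 7.66% and 3.31% at 12-somite, 18.8%, 5.03% and 6.70% at protruding-mouth, and 19.6% and 36.7% in adult tail. Egg libraries were above all libraries of 32-cell, 12-somite and protruding-mouth, and adult libraries were above all of these too, though they differed most from each other. This measure was chosen after its values were seen and was not tested. Position 84 was counted in each reference's own numbering. Early C85 and A86 align with late positions 83 and 84, which the late values leave out. These 2 positions took 0.647% and 0.264% of the 5.8S ends at protruding-mouth, and 1.52% and 0.997% in adult tail, as stage means.

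**Figure D4:**
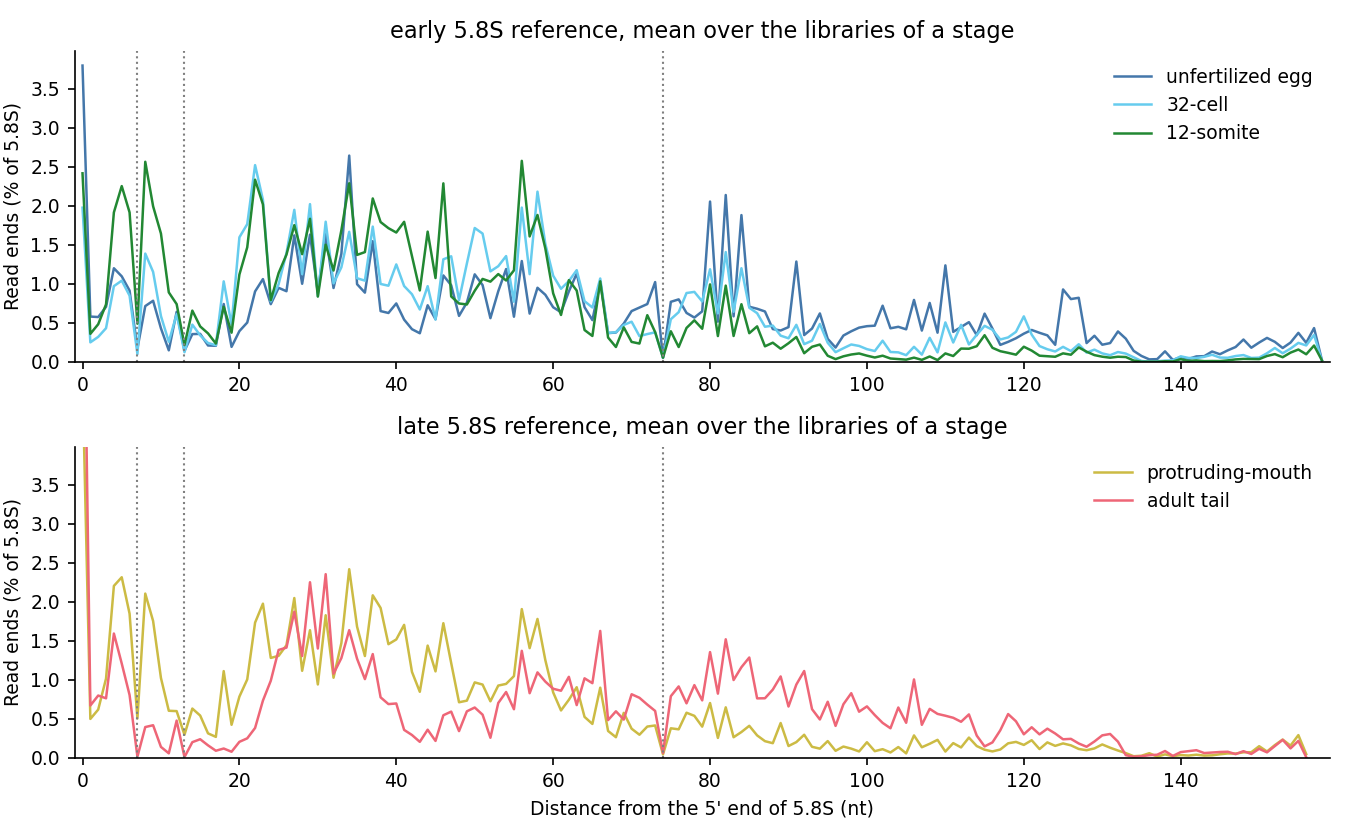
Read ends at each position of 5.8S as a percentage of all 5.8S read ends, as the mean over the libraries of a stage, against the distance from the 5′ end in nucleotides, for the early reference (top) and the late reference (bottom). Dotted lines mark Um8, Um14 and Gm75, where the profiles dip, and the first position is the highest in egg, protruding-mouth and adult tail, at 3.8%, 4.88% and 7.55%.

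Positions of 5.8S outside the listed sites gave the background of the score. Their median score in a library lay between 0.0574 and 0.278, and 0.694% to 6.94% of them reached 0.75. The corresponding medians were 0.0489 to 0.223 on 18S and 0.0431 to 0.206 on 28S. All 3 listed sites were above the 5.8S median in every library, the nearest being Um8 in protruding-mouth library 2, at 0.388 against 0.182. Single unlisted positions nearby still scored above the uridines in some stages. At protruding-mouth U18, with a mean of 0.655, lay above Um8 at 0.553 and Um14 at 0.577. A20, at 0.558, lay above Um8 there. In egg G12, at 0.679, and A20, at 0.657, lay above Um14 at 0.646. At 12-somite U18, at 0.736, lay above Um14 at 0.706. In adult tail U18, G12 and A20, at 0.588, 0.855 and 0.779, lay below both uridines.

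The unlisted positions with the highest mean score over 14 libraries were G137 (0.842), C138 (0.759), G136 (0.662), U18 (0.660) and A20 (0.629), in early numbering. U18 and A20 lie in the flank of Um14, and U18 ranged from 0.453 to 0.814 and A20 from 0.379 to 0.863. At the 7 substituted positions the mean score was low, from 0.00640 at G153 to 0.270 at A112. The stage means at C99, an A in late 5.8S, were 0.0985 in egg and 0.0359 at 32-cell, then 0.0470 in 12-somite embryos, 0.356 in larvae and 0.420 in adult tail. The nucleotide itself differs there, so these values compare C with A.

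**Figure D5:**
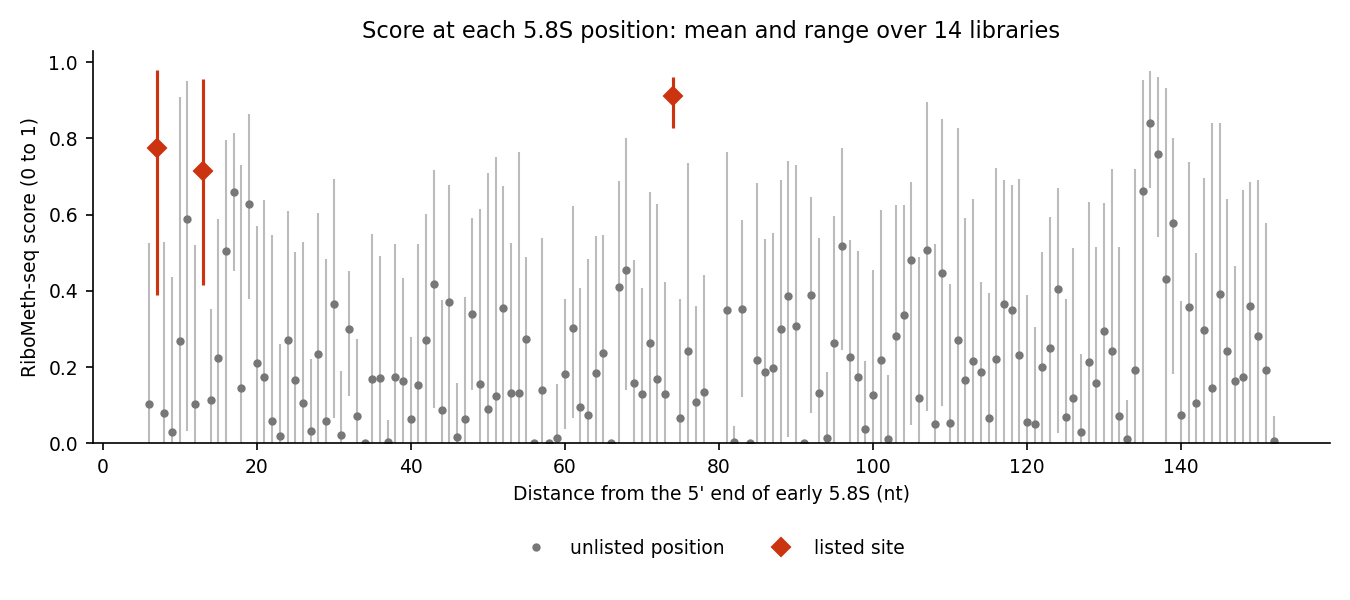
Mean score (point) and range over the 14 libraries (line) at each 5.8S position with a full set of flanks, against the distance from the 5′ end of early 5.8S in nucleotides; late positions were matched by alignment. The 3 listed sites are diamonds, with means of 0.776, 0.715 and 0.911, and the highest unlisted position is G137, at 0.842.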

How the data were processed

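RNA fragments of 20 to 40 nt were sequenced, per the labels' protocols, and the submitters' processing notes name cutadapt 2.0 and Bowtie2 2.3.4.1. The deposited count of read ends per position is not normalized. The deposited score of each library is a fraction from 0 to 1, recomputed here within 5.00e-13 at 75336 positions. The authors' overview gives a mean score per stage. All 15 means at 5.8S sites matched the uncorrected scores within 1e-06, so no barcode correction by the authors touched them. The numbers over the 2 adult columns do not match the sample titles, so they are called A and B, and 10 other adult columns were not used. The 4 small-RNA samples were not used.

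Sites needed a flank mean of at least 10 read ends, which excluded 0 of 98. Scores were fitted untransformed with limma 3.58.1 (R 4.3.3) on the means of 5 stages, adjusted over 98 sites, at a threshold of 0.05. Shares and correlations were tested by permutation in numpy 2.4.6, and counting intervals were taken with scipy 1.17.1. The tests of correlations and of the 2 references were two-sided. The test of shares over stages counted assignments with a between-stage sum of squares at least as large as observed. Sequences were aligned with Biopython 1.88. The procedures were tested on simulated data. Same-numbered libraries of 32-cell, 12-somite and protruding-mouth deviated together from their stage means over 98 sites (r = 0.199 to 0.588), and those of egg did not. Egg libraries 1 and 2 did so with the 32-cell libraries of the same barcode, which have other numbers (r = 0.568 and 0.443). Egg libraries 3 and 1 did so with protruding-mouth libraries 1 and 2, which share neither number nor barcode with them (r = 0.637 and 0.579). Over all pairs of an egg library with one of these stages, r ran from -0.575 to 0.637. The fits without a block take account of none of these links.

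Named sites were the 3 listed ones, for each the 3 most alike elsewhere, the 5 highest unlisted positions, the substituted positions and the 5 positions with most read ends. Members, lists and tests were chosen with earlier results of these data known. Positions are those of the rRNA as the files number it, and genome coordinates were not used here.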

Additional observations from a re-analysis of the deposited data

Results flagged for a closer look

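Positions G137 and C138 of 5.8S, in early numbering, are not among the listed sites, and their mean scores over 14 libraries were 0.842 and 0.759, both at or above 0.75. G137 scored 0.910, 0.704 and 0.687 in egg, 0.905, 0.977 and 0.912 at 32-cell and 0.902, 0.946 and 0.808 at 12-somite. It scored 0.670, 0.916 and 0.698 at protruding-mouth and 0.862 and 0.889 in adult tail, so 10 of 14 libraries reached 0.75. C138 lay between 0.541 and 0.960, with 9 of 14 libraries at 0.75 or more. Read ends were few there: G137 had 3 to 162 and C138 5 to 228, and the lowest flank means were 16.2 and 14.4. In the libraries from egg to protruding-mouth the last 5′ end on 5.8S lay at position 140 to 144 in the same numbering. The part of this depth in the scores was not tested.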

How the results depend on the processing

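The 1 passing test of 30 became 6 on the logit scale, all of them contrasts of adult tail at Um8 or Um14, 3 with 2 flanking positions on each side and 0 with limma's trend and robust options, with libraries centred on their median or with the quasi-binomial model. With the barcode as a block 3 of 12 passed. Leaving out 1 library gave 0 to 2. For all 5 stages, 0 of the 3 sites became 2 on the logit scale and 1 with 2 flanking positions. For adult tail against protruding-mouth at Um14, 14 of 25 alternatives passed, with adjusted p between 0.000914 and 0.752, and 0 reversed it. The 14 include the setting with no coverage minimum, which repeats the reported fit. With each pair of stages fitted alone 1 test passed, that of Um8 for adult tail against 32-cell (limma adjusted p = 0.0405), while Um14 for adult tail against protruding-mouth had 0.144. Of 795 values for a site and pair under the alternatives, 27 had another sign than the reported one, 17 of them at Gm75, and 0 of these passed in either setting. The correlation of Um8 and Um14 was 0.709 on the logit scale (adjusted permutation p = 0.0152) and 0.751 with 2 flanking positions (adjusted p = 0.00312). The exact p for the share of read ends was 0.0335 without the first and last 20 positions and 0.0176 to 0.227 when 1 library was left out. For these changes the cause was not tested.

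With the replicate number as a block within 32-cell, 12-somite and protruding-mouth 0 of 9 tests passed, and 0 of 18 with egg included. None of these tests passed without a block either. In the fit with egg the number does not pair the egg libraries, which did not deviate together with same-numbered ones. Both fits leave out adult tail, so they could not test the call of Um14 for adult tail against protruding-mouth. For the share of read ends the exact p within numbers over those 3 stages was 0.111, against 0.275 without the block. Leaving Um8 and Um14 out of each other's flanks, added after the data were seen, gave 1 of 30, as did a coverage minimum of 50 or none and unlimited scores; the block within 3 stages was also added then. Barcode-corrected scores were not run, since no 5.8S site was corrected. Precision is limited by 2 adult libraries and by the 3 and 6 read ends at Um14 and Um8 in adult library A.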

Other observations

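The background score on 5.8S differed by nucleotide. Over unlisted positions with the same letter in both references, the median of the mean scores was 0.271 for 29 A, 0.250 for 41 G, 0.140 for 26 U and 0.0745 for 39 C. The highest unlisted mean was 0.629 at A, 0.842 at G, 0.660 at U and 0.759 at C. These values are a description, since positions of 1 molecule share their libraries and flanks.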
